A study of Neotoma lepida with 16 samples.

Results

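The 10 core circadian clock genes Arntl, Clock, Npas2, Per1, Per2, Per3, Cry1, Cry2, Nr1d1 and Nr1d2 were followed animal by animal in liver RNA of 16 desert woodrats (Neotoma lepida). They were taken as every probe whose gene name on the array, once a suffix marking predicted genes was removed, was one of these symbols. This gave 12 of the 41012 probes and 10 of the 35561 genes or transcripts on the array. Per3 had 3 probes and each other gene had 1. All 10 genes were among the 26553 genes that passed the filter on dim probes and were tested.

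The wild-caught animals came from 2 populations, Great Basin and Mojave, and had lived on rabbit chow in captivity for 3 months. They then ate chow with a rising amount of creosote bush or of juniper for 5 days. The groups were Great Basin animals on creosote, Great Basin animals on juniper, Mojave animals on creosote and Mojave animals on juniper, with 4 animals each. No female was among the Mojave animals on creosote, and the other 3 groups had 2 of each sex. The ages of the animals and the time of day at which the livers were taken are not given in the sources used here, and no group on chow alone was analysed here.

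Each animal had 1 two-colour Agilent rat array. The red dye carried the RNA of the animal and the green dye an equimolar pool of the liver RNA of all 16 animals, so a value is the log2 ratio of 1 animal over the pool. The probes were designed for rat, and levels of different genes cannot be set against each other. Between 46.4% and 76.2% of the probes were well above background in the red channel of an array, and the mean was lower on slide 1 (49.2%) than on the other 3 slides (66.0% to 71.7%). Each slide held 1 animal of each group, but the place on the slide went with the group, so that place and group cannot be told apart. The liver markers Alb, Ttr, Apob, Ahsg, Serpina1, Fgb and Hpx were well above background on all 16 arrays and Fga on 14, while the probes of Apoa1 and Tf were well above background on 0. In whole liver, fewer cells of a type and less RNA per cell cannot be told apart.

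The clock is a loop of transcription and repression. ARNTL (also named BMAL1) pairs with CLOCK or its close relative NPAS2 and switches on the Per and Cry genes, whose proteins return to the nucleus and repress that pair. In a second loop the same pair switches on Nr1d1 and Nr1d2, which encode the receptors REV-ERB alpha and beta, and these repress Arntl and Npas2. In the liver of laboratory rodents Arntl peaks at a time of day when the Per genes are low, and meal times can shift the whole loop.

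Arntl was higher, and Per2 and Per3 were lower, in Great Basin animals on creosote than in Great Basin animals on juniper. These 3 of the 10 clock genes passed the test (limma, Benjamini-Hochberg adjustment over the 26553 genes, threshold 0.05), 1 higher and 2 lower. Of all genes tested, 3.98% passed in either direction, 2.06% as higher and 1.93% as lower. In Mojave animals 0 of the 10 passed, against 9.53% of all genes tested (3.82% as higher and 5.71% as lower). At an unadjusted p under 0.05 the Mojave count was 4 of the 10, against 22.1% of all genes tested. Averaged over both populations the same 3 genes passed, against 12.1% of all genes tested. The plot of the animals' values shows where the groups lie.

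**Figure D1:**
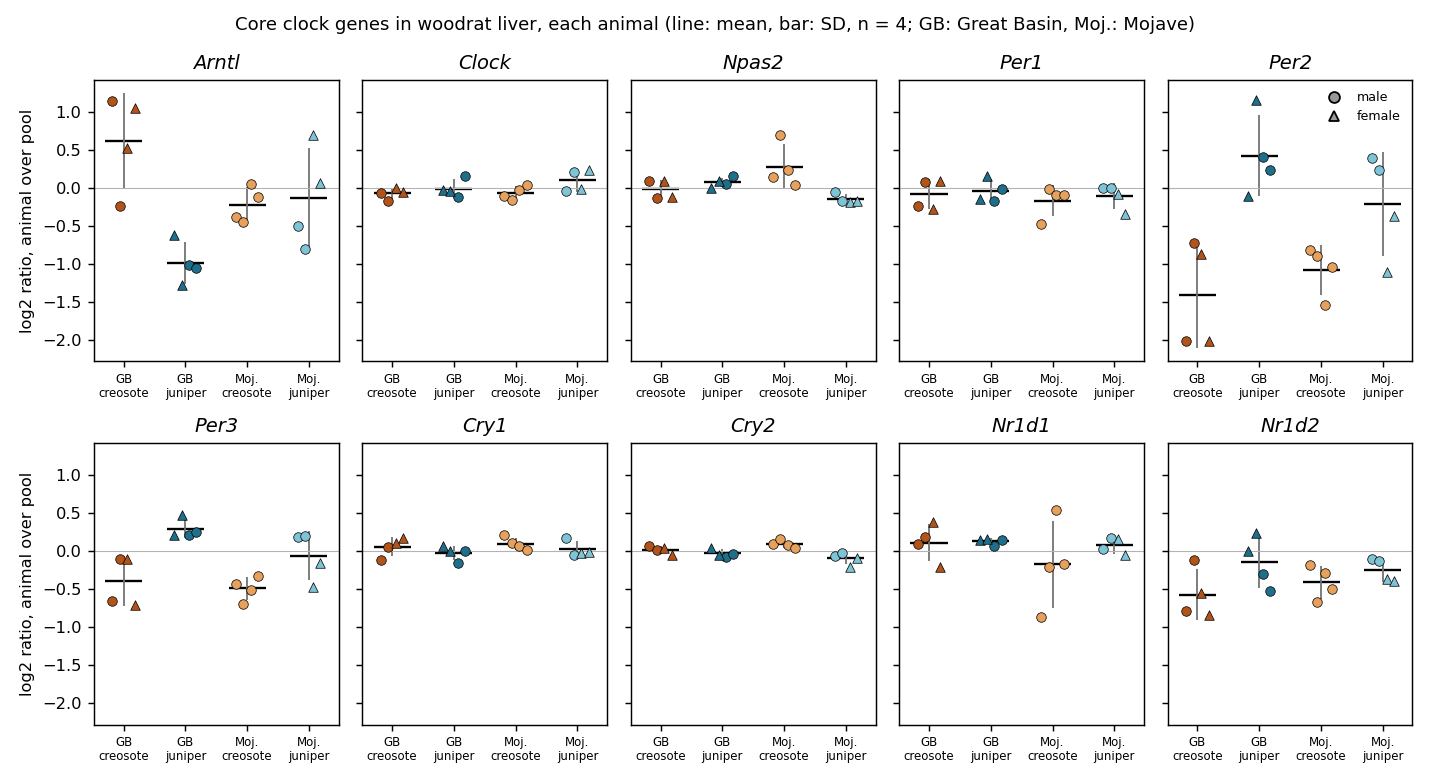
Log2 ratio of each animal over the pool (vertical axis) for the 10 clock genes in the 4 groups, with circles for males, triangles for females, a line for the mean and a bar for the SD of 4 animals. Arntl, Per2 and Per3 separate creosote from juniper in Great Basin, and the values of Clock, Per1, Cry1 and Cry2 overlap between the diets there.

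Among the activators, Arntl (probe A_44_P214873) had log2 ratios of 1.15, -0.25, 0.52 and 1.04 in Great Basin animals 1 to 4 on creosote, against -0.62, -1.28, -1.01 and -1.05 in Great Basin animals on juniper. The 4 creosote values all lay above the 4 juniper values, and creosote animal 2 was the lowest of its group. The difference was 1.61 ± 0.28 (SE; 95% interval 1.02 to 2.19), a 3.05-fold higher level on creosote (adjusted p = 0.00332).

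Arntl in Mojave animals on creosote was -0.38, -0.45, 0.05 and -0.13, against -0.51, -0.80, 0.69 and 0.06 in Mojave animals on juniper. The groups overlapped: juniper animals 3 and 4, the 2 females of that group, were the highest Mojave animals for this gene. The difference with sex in the model was 0.15 ± 0.30 (SE; 95% interval -0.48 to 0.79; adjusted p = 0.836), and the plain difference of the means was -0.09. Females stood 0.48 ± 0.22 above males for Arntl in the model (adjusted p = 0.996, limma), so the sign of the Mojave value turned with the sex term. Both females lay above both males only in Mojave animals on juniper, where they were on other slides than the males. In Great Basin the sexes overlapped on each diet.

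The diet difference of Arntl in Mojave minus that in Great Basin was -1.45 ± 0.40 (SE), and it missed the threshold over all genes (adjusted p = 0.147, limma interaction term). With each array centred on its median in place of loess it was -1.91 and passed (adjusted p = 0.0239), as did 2405 of the 26553 genes under that centring. With loess, of all genes tested, 0% passed for this interaction, and 0 of the 10 clock genes did. At an unadjusted p under 0.05 the interaction of 2 clock genes, Arntl and Npas2, passed, against 13% of all genes tested.

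Clock, the usual partner of ARNTL, had mean log2 ratios of -0.08 ± 0.07 on creosote and -0.01 ± 0.12 on juniper in Great Basin, and of -0.07 ± 0.09 on creosote and 0.09 ± 0.15 on juniper in Mojave (SD, n = 4 each). Its diet difference was -0.06 in Great Basin (95% interval -0.24 to 0.11) and -0.15 in Mojave (95% interval -0.34 to 0.04). The 16 animals spanned 0.40 for Clock, against 2.42 for Arntl.

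Npas2 (probe A_44_P405793), the alternative partner, was 0.14, 0.70, 0.24 and 0.03 in Mojave animals on creosote, against -0.05, -0.18, -0.19 and -0.17 in Mojave animals on juniper. Every creosote value lay above every juniper value, and creosote animal 2 stood highest of all 16 animals. The difference was 0.40 ± 0.12 (SE) and just missed the threshold (adjusted p = 0.0506, limma). It passed with the deposited ratios (0.81, adjusted p = 0.0483), with probes well above background on all 16 arrays (adjusted p = 0.0393), without the sex term (adjusted p = 0.0183) and without Mojave creosote animal 4 (0.49, adjusted p = 0.0213). It also just passed when every kept probe was fitted as its own row (0.40, adjusted p = 0.0492). Without Mojave creosote animal 2, the high one, the difference was 0.26 (adjusted p = 0.0803), and without Mojave juniper animal 2 it was 0.38 (adjusted p = 0.152).

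In Great Basin, Npas2 was 0.09, -0.14, 0.08 and -0.12 on creosote, against 0.00, 0.08, 0.05 and 0.15 on juniper, and the groups overlapped. The difference was -0.09 ± 0.11 (adjusted p = 0.752), and the interaction was 0.49 ± 0.17 (adjusted p = 0.218).

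**Figure D2:**
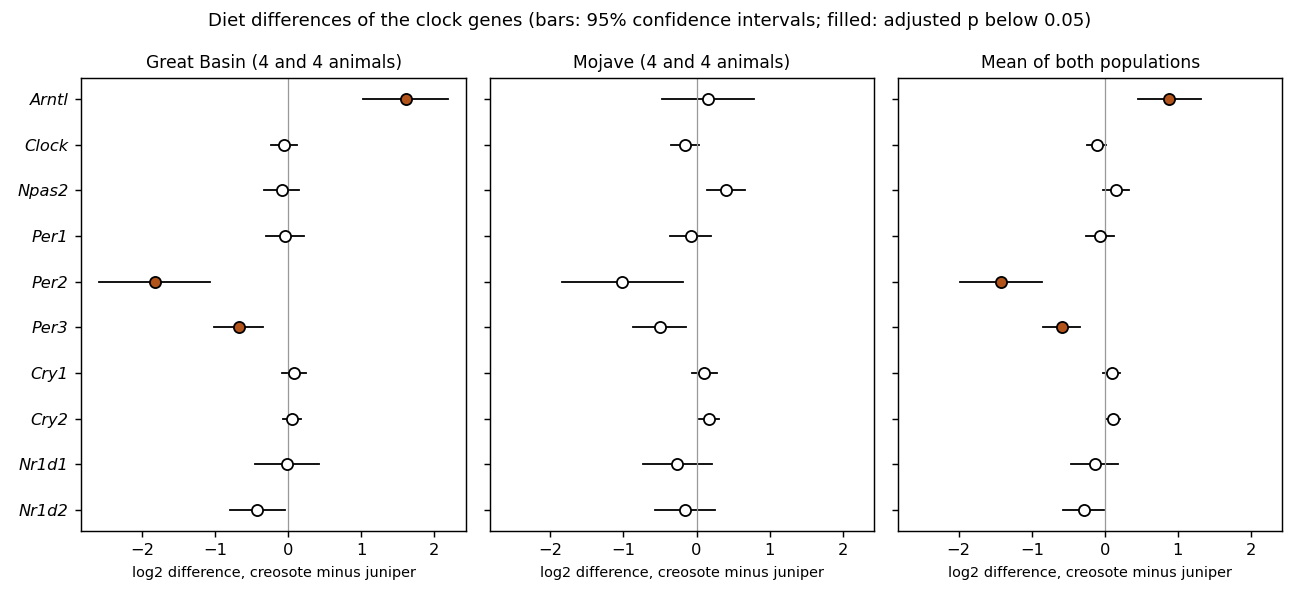
Log2 difference, creosote minus juniper, for each clock gene in Great Basin, in Mojave and averaged, with 95% intervals from limma and filled points where the adjusted p is below 0.05. Arntl lies to the right and Per2 and Per3 to the left of 0 in Great Basin, and the Mojave panel has no filled point.

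Of the 10 clock genes Per2 (probe A_42_P708593), a repressor, had the largest diet difference in Great Basin. It was -2.02, -0.72, -0.87 and -2.02 in Great Basin animals on creosote, against -0.11, 1.16, 0.40 and 0.23 in Great Basin animals on juniper. All 4 creosote animals lay below all 4 juniper animals, and creosote animals 1 and 4, which had the lowest Per2, had the highest Arntl. The difference was -1.83 ± 0.36 (SE; 95% interval -2.59 to -1.06), a 3.55-fold lower level on creosote (adjusted p = 0.00904).

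In Mojave animals Per2 was -0.82, -0.91, -1.55 and -1.05 on creosote, against 0.39, 0.23, -1.11 and -0.38 on juniper. The groups overlapped through juniper animal 3, while the other 3 juniper animals lay above all 4 creosote animals. The difference was -1.02 ± 0.39 (SE; 95% interval -1.84 to -0.19; adjusted p = 0.124). It passed among males alone (-1.39, adjusted p = 0.0386), with slide as a block (-1.03, adjusted p = 0.0488) and with median centring (-1.50, adjusted p = 0.0172). The diet differences of the 2 populations were not shown to differ for Per2 (interaction 0.81 ± 0.53, adjusted p = 0.557), and the averaged difference was -1.42 ± 0.26 (adjusted p = 0.0022).

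Per3 followed Per2 at a smaller size. Its brightest probe, A_44_P196198, read -0.65, -0.11, -0.10 and -0.70 in Great Basin animals on creosote, against 0.22, 0.47, 0.22 and 0.25 in Great Basin animals on juniper. The groups did not overlap, and creosote animals 1 and 4 were again the lowest. The difference was -0.68 ± 0.16 (SE; adjusted p = 0.0246), 1.60-fold lower on creosote.

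Leaving out 1 animal ended the call for Per3 in 4 cases: without Great Basin creosote animal 1 (-0.55, adjusted p = 0.0905), creosote animal 4 (-0.59, adjusted p = 0.0657), juniper animal 1 (-0.68, adjusted p = 0.0679) or juniper animal 2 (-0.58, adjusted p = 0.0863). In Mojave animals Per3 was -0.44, -0.70, -0.52 and -0.32 on creosote, against 0.19, 0.20, -0.47 and -0.16 on juniper. Juniper animal 3 fell inside the creosote range and the other 3 lay above it. The difference was -0.50 ± 0.17 (adjusted p = 0.0832), the interaction was 0.17 ± 0.23 (adjusted p = 0.818), and the averaged difference was -0.59 ± 0.12 (adjusted p = 0.00351).

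The other probes of Per3, A_43_P16143 and A_44_P407318, were well above background on 2 of the 16 arrays each and were not tested with the main set. Fitted without the filter, their Great Basin differences were -0.06 and -0.07 (adjusted p = 0.824 and 0.805), so the result on Per3 rests on 1 probe. Their values spanned 0.42 and 0.49 over the 16 animals, against 1.17 for the bright probe.

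Per1 did not pass the test in any comparison. Its mean log2 ratio was -0.09 ± 0.20 on creosote and -0.04 ± 0.15 on juniper in Great Basin, and -0.17 ± 0.21 on creosote and -0.11 ± 0.17 on juniper in Mojave (SD, n = 4 each). The differences were -0.04 (95% interval -0.31 to 0.22) in Great Basin and -0.08 (95% interval -0.37 to 0.20) in Mojave. The Great Basin interval of Per1 lay wholly above that of Per2.

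The genes of the cryptochromes, the partners of the PER proteins, did not pass the test in any comparison. Cry1 was well above background on 10 arrays and Cry2 on 12, so their ratios are drawn towards 0 by the offset added to both dyes. Cry1 averaged 0.05 ± 0.12 on creosote and -0.02 ± 0.09 on juniper in Great Basin, and 0.10 ± 0.08 on creosote and 0.02 ± 0.10 on juniper in Mojave (SD, n = 4 each).

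Cry2 was 0.09, 0.16, 0.08 and 0.04 in Mojave animals on creosote, against -0.07, -0.02, -0.20 and -0.09 in Mojave animals on juniper. These groups did not overlap, yet the difference of 0.17 ± 0.06 missed the threshold (adjusted p = 0.104) and passed without the sex term (0.19, adjusted p = 0.0389). In Great Basin the Cry2 difference was 0.05 ± 0.06 (adjusted p = 0.743).

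The REV-ERB genes did not pass the test in any comparison. Nr1d2 was -0.79, -0.11, -0.55 and -0.84 in Great Basin animals on creosote, against 0.00, 0.23, -0.31 and -0.52 in Great Basin animals on juniper. Creosote animal 2 was the highest of its group and fell among the juniper animals. The difference was -0.42 ± 0.18 (SE; adjusted p = 0.224, limma).

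Nr1d2 in Mojave was -0.18, -0.67, -0.29 and -0.51 on creosote, against -0.10, -0.13, -0.36 and -0.40 on juniper, with a difference of -0.16 ± 0.19 (adjusted p = 0.712). Nr1d1 was -0.87, -0.21, 0.54 and -0.17 in Mojave animals on creosote, against 0.03, 0.18, 0.16 and -0.06 in Mojave animals on juniper. The spread of Nr1d1 among Mojave animals on creosote (SD 0.57) was the widest of the 4 groups, and that of Great Basin animals on juniper (SD 0.05) the narrowest. Its difference was -0.26 ± 0.22 in Mojave and -0.02 ± 0.21 in Great Basin (adjusted p = 0.562 and 0.979). The Mojave difference was -0.03 without creosote animal 1 and -0.50 without creosote animal 3, and the Great Basin one was 0.10 without creosote animal 4 and -0.12 without creosote animal 3.

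Values that do not overlap between diets were counted beside the same count over all genes with a value in every animal compared. In Great Basin 3 clock genes had diets that did not overlap, against 10.3% of all genes. In Mojave 2 did (Npas2 and Cry2), against 16.4% of all genes. Over all 8 creosote and all 8 juniper animals 0 clock genes did, against 2.56% of all genes. The median diet difference of the 10 clock genes was -0.05 in Great Basin and -0.12 in Mojave, where the median over all genes tested was -0.01 and 0.00.

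The differences were also taken within each slide, between 1 creosote and 1 juniper animal of a population. For genes whose diets do not overlap in a population, every such pair must have the same sign, so only the sizes add something. The share of all genes with the same sign on every slide was not computed. In Great Basin, Arntl was higher on creosote on 4 of 4 slides, by 1.03 to 2.16. Per2 was lower on 4 of 4, with differences between -2.42 and -1.10, and Per3 likewise, with differences between -0.92 and -0.35. Nr1d2 was lower on 4 of 4, between -0.84 and -0.03.

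On the same slides the Mojave animals had Per2 lower on creosote on 4 of 4, between -1.21 and -0.44, and Per3 on 4 of 4, between -0.90 and -0.05. Npas2 was higher on 4 of 4 slides, by 0.20 to 0.87, and Cry2 on 4 of 4, by 0.13 to 0.29. Cry1 was higher on creosote in all 8 pairs of both populations, by 0.02 to 0.16, and Clock was lower on 4 of 4 slides in Mojave, between -0.37 and -0.01. Arntl was higher on 2 slides and lower on 2, between -0.64 and 0.35.

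**Figure D3:**
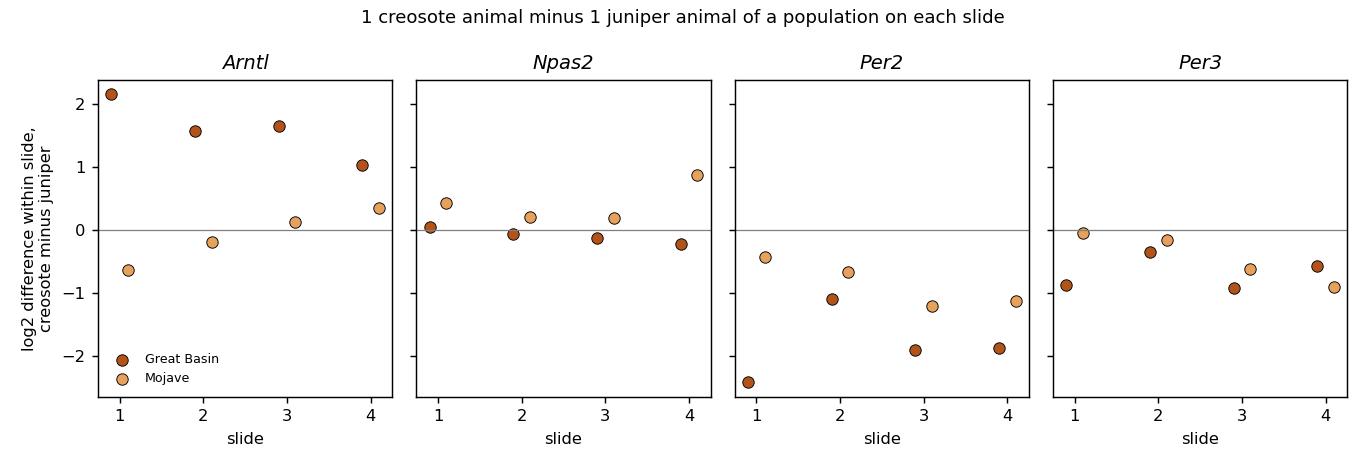
Log2 difference of 1 creosote animal minus 1 juniper animal of the same population (vertical axis) on each of the 4 slides, for Arntl, Npas2, Per2 and Per3. The Great Basin points of Arntl all lie above 0 and its Mojave points lie on both sides, while every point of Per2 and Per3 lies below 0.

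Without slide 1, on which fewer probes were well above background, the count in Great Basin was 1, Arntl. Per2 then had a difference of -1.63 (adjusted p = 0.052) and Per3 of -0.62 (adjusted p = 0.103). Among males alone the count in Great Basin was 0: Arntl had 1.48 (adjusted p = 0.118), Per2 -1.69 (adjusted p = 0.0788) and Per3 -0.61 (adjusted p = 0.174), from 2 animals per diet.

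Between the populations 0 of the 10 clock genes passed on creosote, where 0.0716% of all genes tested did, and 0 passed on juniper, where 0.0113% did. On juniper, the Arntl difference, Mojave minus Great Basin, was 0.85 ± 0.28 (adjusted p = 0.403, limma). Per3 and Npas2 had Mojave values wholly below the Great Basin values on juniper, with differences of -0.35 ± 0.16 (adjusted p = 0.609) and -0.21 ± 0.11 (adjusted p = 0.674), and 6.7% of all genes did not overlap in this comparison. On creosote, the Arntl difference was -0.60 ± 0.30 (adjusted p = 0.383), and 0 clock genes had groups that did not overlap, against 5.94% of all genes.

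The mean of Arntl was highest in Great Basin animals on creosote (0.62 ± 0.64), followed by Mojave animals on juniper (-0.14 ± 0.66), Mojave animals on creosote (-0.23 ± 0.23) and Great Basin animals on juniper (-0.99 ± 0.28; SD, n = 4 each). Of the neighbours in that order that share a population or a diet, the Mojave pair did not differ beyond its spread. For Per2 the order was Great Basin on juniper (0.42 ± 0.53), Mojave on juniper (-0.22 ± 0.68), Mojave on creosote (-1.08 ± 0.33) and Great Basin on creosote (-1.41 ± 0.71). The neighbours in the Per2 order did not pass the test against each other.

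Arntl was also set against each other clock gene from animal to animal within a diet, and it ran opposite to Per2 and Per3 on juniper. Slide was not taken out of these correlations, and its part in them was not tested. In each group the animal on slide 4 had the lowest Arntl (-0.25 and -1.28 in Great Basin, -0.45 and -0.80 in Mojave, creosote first). Per2 of the slide 4 animals was the highest of its group in Great Basin (-0.72 and 1.16) but not in Mojave (-0.91 and 0.23). Over the 8 juniper animals Pearson's r of Arntl with Per3 was -0.97 (exact permutation p = 0.000174, two-sided, adjusted p = 0.00313 over 18 pairs), and Spearman's rho was -0.98 (exact permutation p = 0.000397, adjusted p = 0.00714). Without Mojave juniper animals 3 and 4, the farthest from the median of Arntl, r was -0.77 over 6 animals (exact permutation p = 0.00972).

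For Arntl and Per2 over the 8 juniper animals r was -0.92 (exact permutation p = 0.00107, adjusted p = 0.0096) and rho was -0.81 (exact permutation p = 0.0218, adjusted p = 0.131). Without the same 2 animals r was -0.70 over 6 animals and did not pass (exact permutation p = 0.113). Each population had only 4 animals per diet, too few for a value within a population. With each group centred on its own mean, r over the juniper animals was -0.91 for Per2 (permutation, adjusted p = 0.0104) and -0.95 for Per3 (adjusted p = 0.00313). Without the 2 farthest animals of the centred values, Mojave juniper 2 and 3, r was -0.92 for Per2 (permutation p = 0.0181) and -0.86 for Per3 (permutation p = 0.0333). The permutation also swapped centred values between the groups, so p-values from centred values are approximate and may be too small.

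Over the 8 creosote animals r of Arntl with Per2 was -0.83 (exact permutation p = 0.0168, adjusted p = 0.084) and rho was -0.69 (exact permutation p = 0.0694, adjusted p = 0.312). Without Great Basin creosote animals 1 and 4, r was -0.24 (exact permutation p = 0.601), so the value without centring rests on those 2 animals. With the groups centred r was -0.90 (permutation, adjusted p = 0.00625). Without the 2 farthest animals of the centred values, Great Basin creosote 1 and 2, it stayed at -0.90 (permutation p = 0.0194). Arntl and Per3 had r = -0.30 over the creosote animals (exact permutation p = 0.467, adjusted p = 0.634), and Arntl and Per1 had r = 0.07 (exact permutation p = 0.877). With the groups centred, r for Per3 was -0.66 (permutation, adjusted p = 0.231), and -0.38 without Great Basin creosote 1 and 2 (permutation p = 0.431). Npas2 and Arntl had r = -0.77 over the juniper animals (exact permutation p = 0.0187, adjusted p = 0.084). That value was -0.47 with the groups centred (permutation, adjusted p = 0.483) and -0.87 with the deposited ratios (exact permutation, adjusted p = 0.0265).

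**Figure D4:**
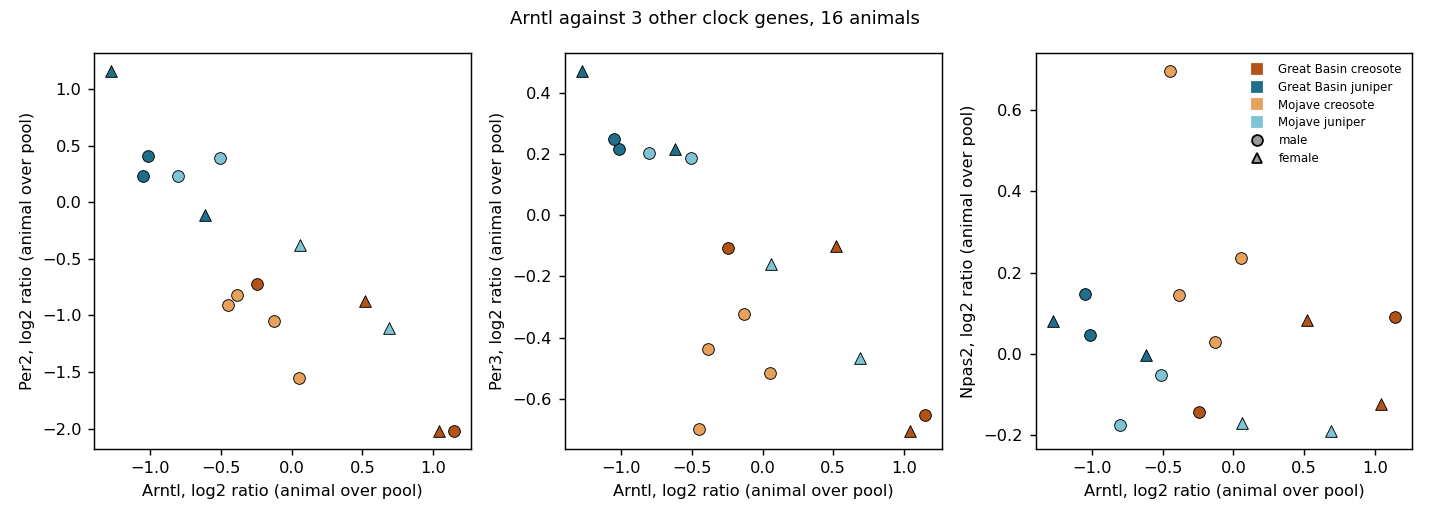
Log2 ratio over the pool of Per2, Per3 and Npas2 (vertical axes) against that of Arntl (horizontal axis) in 16 animals, coloured by group, with circles for males and triangles for females. Juniper animals high for Arntl are low for Per2 and Per3, and the 2 Mojave females on juniper lie towards the creosote animals. Those females were on slides 1 and 2, and the males of their group on slides 3 and 4.

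Mojave juniper animals 3 and 4 stood apart from the 2 males of their group in the same genes. Their Arntl (0.69 and 0.06) was above that of animals 1 and 2 (-0.51 and -0.80), and their Per2 (-1.11 and -0.38) and Per3 (-0.47 and -0.16) were below those of animals 1 and 2 (0.39 and 0.23, and 0.19 and 0.20). Animals 3 and 4 were on slides 1 and 2 and the males on slides 3 and 4, so sex and slide cannot be told apart in this group. The 2 Great Basin females on juniper, which were on slides 3 and 4, did not share this pattern, with Arntl at -0.62 and -1.28. These are values of single animals, and no test was made on them.

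Among the 10127 tested genes that have a symbol and a value on all 16 arrays, Per2 was the gene with the lowest correlation with Arntl (r = -0.89), followed by Map2k3, a kinase of stress signalling (r = -0.85), and St8sia2, a sialyltransferase (r = -0.81). The highest were Pcnt1 (r = 0.84), Nkx2-9 (r = 0.82) and Klhdc8a (r = 0.80). For Per2 the highest were Per3 (r = 0.93), Map2k3 (r = 0.88) and the proteasome subunit gene Psmb1 (r = 0.87), and the lowest were Arntl (r = -0.89), the calcium pump gene Atp2b2 (r = -0.88) and Hal, which encodes histidine ammonia-lyase (r = -0.87). These values describe 16 arrays that share a pool and the diet groups.

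Once group and sex, but not slide, were taken out, Per2 was again the gene lowest with Arntl (r = -0.93), followed by Trpv5 and Krt1-9 (r = -0.85 each). The highest were Ddit4l (r = 0.97), Gucy2e (r = 0.92) and Retsat (r = 0.91), of which Retsat encodes retinol saturase. The diet difference of Map2k3 was -1.16 in Great Basin (adjusted p = 0.000151) and -0.44 in Mojave (adjusted p = 0.0566, limma).

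Of the transcription factors that join the loop or carry its output, 7 of the 10 on the array were tested. Averaged over the populations 2 were higher on creosote and 2 lower, where 5.69% of all genes tested were higher and 6.37% lower. Their median averaged difference was -0.02, against -0.01 over all genes tested, and it was 0.05 in Great Basin and -0.14 in Mojave. Hlf and Tef, which encode activators of rhythmic output genes, were lower, with differences of -0.74 ± 0.15 (adjusted p = 0.00334) and -0.57 ± 0.12 (adjusted p = 0.00498). Nfil3, whose protein represses through the same kind of site, was higher by 0.48 ± 0.12 (adjusted p = 0.0182), and Rorb, which encodes a retinoid-related orphan receptor, by 0.32 ± 0.06 (adjusted p = 0.00335).

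In Great Basin alone Hlf was called (-0.82, adjusted p = 0.0296), and in Mojave alone Nfil3 (0.66, adjusted p = 0.032), Rorb (0.47, adjusted p = 0.00475) and Tef (-0.60, adjusted p = 0.0411) were. Hlf in Mojave was -0.66 (adjusted p = 0.0654). Dbp, Rora and Timeless were on the array and did not pass the filter on dim probes. No member of this list passed for the interaction, so none was shown to differ between the populations in its diet difference.

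Of the kinases and ubiquitin enzymes that set the stability of PER and CRY, all 11 on the array were tested, and 2 were lower on creosote averaged over the populations, where 6.37% of all genes tested were. Usp2, a ubiquitin protease, was lower, with a difference of -0.77 ± 0.20 (adjusted p = 0.0179). Csnk1d, a casein kinase that phosphorylates PER, was lower, with a difference of -0.32 ± 0.09 (adjusted p = 0.0274), and its dimmer probe, at -0.36, was not called (adjusted p = 0.33). The Csnk1d difference was -0.62 in Mojave (adjusted p = 0.00746) and -0.02 in Great Basin (adjusted p = 0.948). Its dimmer probe had the other order, with -0.28 in Mojave (adjusted p = 0.682) and -0.44 in Great Basin (adjusted p = 0.49). No member of this list passed for the interaction. The median of the list was -0.15 averaged over the populations, -0.025 in Great Basin and -0.21 in Mojave.

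Of the rhythmic liver outputs 11 of 13 on the array were tested, and 3 were lower on creosote in Great Basin, in Mojave and averaged, where 1.93%, 5.71% and 6.37% of all genes tested were. Alas1, the rate-limiting enzyme of haem synthesis, was lower, with a difference of -1.42 ± 0.26 (adjusted p = 0.00189). Por, the electron donor of microsomal P450 enzymes, was lower, with a difference of -1.09 ± 0.16 (adjusted p = 0.000369). Gys2, the liver glycogen synthase, was lower, with a difference of -1.31 ± 0.15 at its brightest probe (adjusted p = 5.63e-05), and its other probe read 0.24 (adjusted p = 0.618). That other probe read 1.06 in Great Basin (adjusted p = 0.1) and -0.58 in Mojave (adjusted p = 0.4). The median of the list was -0.22 averaged over the populations, -0.08 in Great Basin and -0.54 in Mojave.

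**Figure D5:**
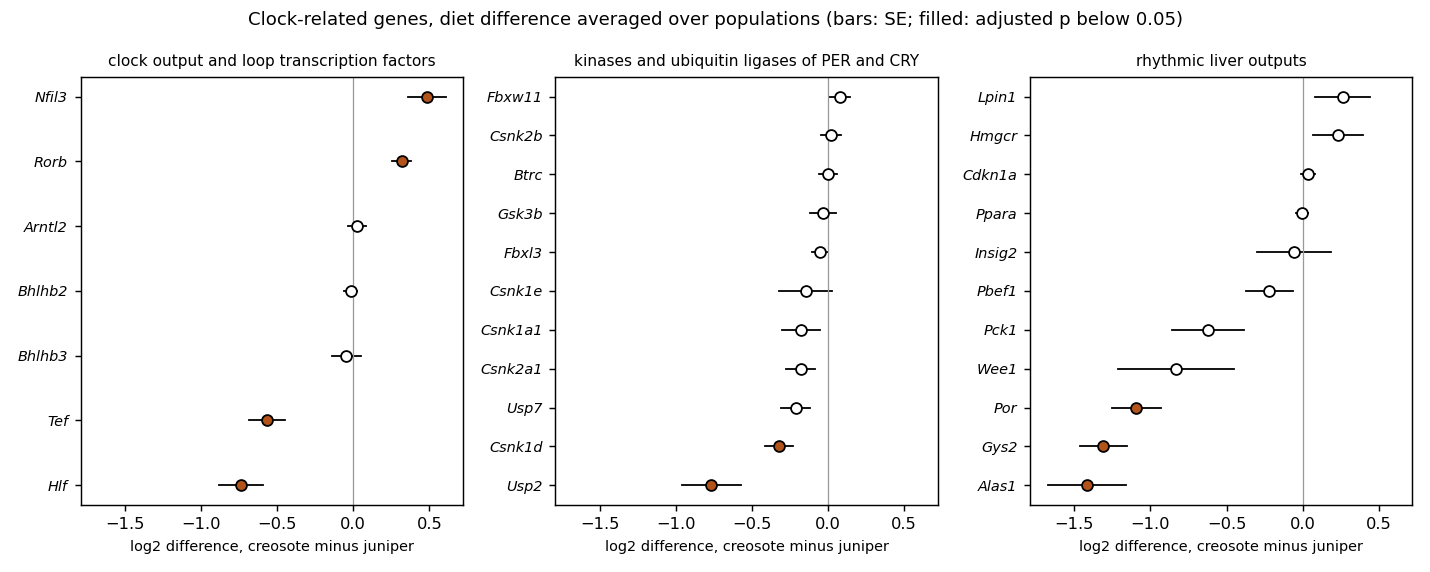
Log2 difference, creosote minus juniper averaged over populations (horizontal axis), for the tested genes of 3 lists around the clock, with the SE as bars and filled points where the adjusted p is below 0.05. Tef, Hlf, Usp2, Csnk1d, Por, Gys2 and Alas1 are filled to the left of 0, and Nfil3 and Rorb to the right.

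Some genes that respond to glucocorticoids and to feeding also passed the test. Of 8 glucocorticoid targets 3 were higher on creosote averaged over the populations, against 5.69% of all genes tested: Tat, tyrosine aminotransferase (1.19 ± 0.14), Sgk, a kinase (0.88 ± 0.23), and Tsc22d3 (0.86 ± 0.19), with 0 lower. The mean of the 8 ranged between -0.20 and -0.03 in Great Basin animals on creosote, against -0.60 and -0.33 in Great Basin animals on juniper, and between -0.07 and 0.24 in Mojave animals on creosote, against -0.25 and -0.07 in Mojave animals on juniper. Tsc22d3 had a difference of 1.37 in Mojave (adjusted p = 0.00708) and of 0.35 in Great Basin (adjusted p = 0.56). The second probe of Tsc22d3, averaged, read 0.12 (adjusted p = 0.534). The median averaged difference of the 8 targets was 0.04, against -0.01 over all genes tested. No glucocorticoid target passed for the interaction.

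Of 10 genes of the fed and fasted state 3 were higher and 0 lower, against 5.69% and 6.37% of all genes tested. They were Srebf1, a regulator of fat synthesis (1.37 ± 0.14), G6pc, the catalytic subunit of glucose-6-phosphatase (1.52 ± 0.16), and Fasn, fatty acid synthase (1.02 ± 0.20). These belong to opposite states, since Srebf1 and Fasn are known to rise on feeding and G6pc on fasting. Dimmer probes gave smaller values: 0.85 and 0.05 for Srebf1, 0.48 for G6pc and 0.13 for Fasn. The median averaged difference of the 10 genes was 0.14, against -0.01 over all genes tested. Food intake was not analysed here, and the part of feeding and of glucocorticoids in the clock differences was not tested.

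Of the 8 hepatocyte markers tested, 4 were higher on creosote averaged over the populations (Alb, Ttr, Fgb and Ahsg), against 5.69% of all genes tested, and 0 were lower. The mean of the 8 ranged between 0.37 and 0.79 in Great Basin animals on creosote, against 0.01 and 0.14 in Great Basin animals on juniper. In Mojave it ranged between 0.28 and 0.68 on creosote, against -0.09 and 0.03 on juniper. The third probe of Alb read 0.00 (adjusted p = 0.976), against 1.31 at the brightest. Their part in the clock differences was not tested.

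Of the markers of other cells, 1 of 7 for Kupffer cells was lower (Cd14, -0.39), 2 of 7 for stellate cells and fibroblasts were higher (Rgs5, 0.94, and Pdgfrb, 0.68) and 1 of 6 for endothelium was higher (Xlkd1, 0.56), where 5.69% of all genes tested were higher and 6.37% lower. The second probe of Cd14, averaged, read 0.00 (adjusted p = 0.988). None of the 2 cholangiocyte, 5 lymphocyte, 2 erythroid and 4 neutrophil markers passed. The mean of the stellate markers ranged between -0.33 and 0.38 in Great Basin animals on creosote, against -0.38 and 0.10 in Great Basin animals on juniper, and between 0.12 and 0.37 in Mojave animals on creosote, against -0.33 and -0.05 in Mojave animals on juniper. Their part in the clock differences was not tested either.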

How the data were processed

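Liver RNA of 16 woodrats was measured on 16 two-colour rat arrays. Per the file headers and the submitters' processing notes, Agilent Feature Extraction 9.1.3.1 wrote the deposited signals and backgrounds, which are linear intensity values, and a log10 ratio of red over green (not used). The deposited series table holds log2 ratios of the processed signals, animal over pool: they differed from the processed signals in the scanner files by at most 5e-10. No dyes were swapped, so a dye effect alike on all arrays cancels between groups.

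The mean and background intensity of both dyes, as deposited, were corrected in R 4.3.3 with limma 3.58.1 by normexp (offset 50, which draws dim ratios towards 0), and normalised by loess within each array with control and outlier spots given no weight. Outlier spots were left out. Of the spots on an array 1639 were controls and 43379 carried probes. A probe was kept if well above background in red on at least 4 of 16 arrays, and the brightest kept probe stood for a gene. No clock probe was saturated.

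One limma model with 4 group means and sex was fitted to all arrays (11 residual and 4.02 prior degrees of freedom), two-sided, with Benjamini-Hochberg adjustment over 26553 genes at a threshold of 0.05. Precision is set by the few arrays, with a median SE of 0.089 for the Great Basin diet difference, 0.096 for Mojave and 0.131 for the interaction. Correlations over animals used exact permutation, which is only approximate for values centred by group. They did not take slide into account. The fit was tested on simulated data. Animals are separate samples by their labels.

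The members and gene lists were chosen with earlier results of these data known. Every clock gene was named. Of other lists, the genes called by diet were named, at most 6 a list, and of all genes with a symbol the 3 most and 3 least correlated with Arntl and Per2. Symbols follow the array, and genome positions and sequences were not used here. By their values, replicate numbers did not pair the animals: deviations of animals with the same number correlated between -0.17 and 0.14 over 24 pairs, and 2 of 16 animals were closest to one with their own number. The same number meant the same slide in all groups but Great Basin animals on creosote, so a block by number is close to a block by slide. Alternatives covered the deposited ratios, centring, one channel, the offset, filters, sex, slide and each animal left out.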

Additional observations from a re-analysis of the deposited data

Results flagged for a closer look

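In 3 of the 40 groups of 4 animals screened, 1 animal stood apart: its gap to the nearest animal, over the range of the group, was above Dixon's 95% critical value. Chance marks about 1 in 20 groups. Npas2 in Mojave juniper animal 1 was -0.052, above the other 3 animals of its group, which lay between -0.19 and -0.17 (gap over range 0.868). Per3 in Great Basin juniper animal 2 was 0.47, above the other 3, which lay between 0.22 and 0.25 (gap over range 0.872); the same animal had the lowest Arntl and the highest Per2 of all 16. Nr1d1 in Great Basin juniper animal 3 was 0.0596, below the other 3, which lay between 0.14 and 0.16 (gap over range 0.855).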

How the results depend on the processing

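Over 30 alternative settings Arntl, Per2 and Per3 kept the sign of their Great Basin and averaged diet differences. Of the values for single genes, 1666 kept their call or stayed uncalled within the SE of the main value. Another 95 stayed uncalled but moved by more than that SE, 16 passed newly and 11 were lost. The diet difference of Arntl in Mojave, which was not called, changed sign with median centring (-0.15), without the sex term (-0.09) and without Mojave juniper animal 2 (-0.06). The count of clock genes called for diet in Great Basin, 3, was 0 among males alone and 1 (Arntl) without slide 1. The count in Mojave, 0, was 1 with the deposited ratios (Npas2), 1 with probes well above background on all 16 arrays (Npas2), 1 with slide as a block (Per2), 2 without the sex term (Npas2 and Cry2), 2 among males alone (Per2 and Per3) and 3 with median centring (Per1, Per2 and Per3). With median centring 1 gene was also called between the populations on creosote (Per1, -0.41, adjusted p = 0.0451) and 1 for the interaction (Arntl). The averaged count stayed within 1.5 times of 3, though Arntl was lost among males alone (0.96, adjusted p = 0.0507), and Per3 in Great Basin was lost with the deposited ratios (-0.94, adjusted p = 0.0523). Leaving out 1 animal gave 2 to 3 calls in Great Basin, 0 to 1 in Mojave (Per3 without Great Basin creosote animal 1 or 3 or Mojave juniper animal 3, Npas2 without Mojave creosote animal 4), 3 to 3 averaged, and 0 to 0 between populations and for the interaction. Correlations of Arntl called over the creosote animals numbered 0, against 1 with centred groups and 1 with the deposited ratios (Per2 in both). Over the juniper animals they numbered 2 (Per2 and Per3), against 3 with the deposited ratios (Npas2 added).

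With the replicate number as a block, 3 clock genes were called in Great Basin and 0 in Mojave, and no other clock count changed; over all genes the counts were 933 in Great Basin, 2392 in Mojave and 2971 averaged, against 1058, 2530 and 3202.

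Of the genes called for diet 51.6% were higher in Great Basin, 40% in Mojave and 47.2% averaged. With median centring these shares were 63.4% of 1157, 13.6% of 4767 and 29% of 3867 genes, and with the red channel alone 40.2% of 1523 in Great Basin and 52.9% of 1089 in Mojave. Median centring called 3118 genes between the populations on creosote (19 with loess) and 2405 for the interaction (0 with loess). The cause was not tested. Without slide 1 388 genes were called for diet in Great Basin, and among males alone 152; both leave fewer animals. Ratios of Cry1 and Cry2, dim on some arrays, are limited by signal over background.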
